A study of Arabidopsis thaliana with 12 samples.

Results

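Plants detect many pathogens inside their cells with nucleotide-binding leucine-rich repeat receptors (NLRs), and the genes studied here are those of the deposited table whose description contains the words disease resistance protein. The rule used the description alone and no measured value, and it found 166 of the 32954 genes of the table. Of these, 165 were annotated as protein coding and 1 was a transcript assembled by the submitters. The domain column of the table named a TIR domain for 92 of the 166, an NB-ARC domain for 64 and a WRKY domain for 2, so that 158 carried a domain label of this receptor family. The other 8 carried another label or none, and 2 of them (*AT5G23400*, with a leucine-rich repeat label alone, and *AT3G20610*) were not annotated as NLRs apart from their description. The P-loop motif of nucleotide-binding proteins was present in 139 of the 165 protein sequences translated from the RefSeq annotation. The rule did not reach every receptor of the family, since 46 genes outside it had a TIR or NB-ARC domain label.

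RNA of *Arabidopsis* leaves was sequenced in 12 libraries, 4 for each of 3 genotypes. The overexpressor, line #5, carried the *pGlcT2* cDNA under the 35S promoter of cauliflower mosaic virus and was raised in the *glct2* background, and it is a single line. The knock-out *glct2* is a single T-DNA line of the SALK collection with the insertion in the first intron of *pGlcT2*. Wild types were Col-0, the accession behind all 3 genotypes. Before harvest all 3 genotypes, the wild types included, were moved from short days, where they had grown for 24 days, into unbroken light for 10 to 12 days. The labels call the replicates biological and do not say how many plants each held. *pGlcT2* (*AT1G05030*), which encodes a glucose transporter of the chloroplast envelope, was read at 193, 180.3, 215 and 237 FPKM in the overexpressor, 2.65, 3.00, 3.89 and 2.83 FPKM in *glct2* and 9.39, 10.1, 8.26 and 9.48 FPKM in wild types. The 3 ranges did not overlap. The level is given throughout as FPKM, a read number divided by gene length and by the size of the library. Between 17448191 and 24276381 reads per library were recovered from the table, and 1 read in a gene of 1 kilobase corresponded to 0.0425 to 0.0553 FPKM.

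An NLR consists of an N-terminal signalling domain, a central nucleotide-binding switch with the P-loop, and C-terminal leucine-rich repeats, and the N-terminal domain sorts the family into TIR-type, CC-type and RPW8-like members. Sensor NLRs recognise a pathogen effector or the damage it does to a host protein. TIR-type sensors signal through the lipase-like proteins EDS1, PAD4 and SAG101 and through helper NLRs of the RPW8-like class, and they lead to salicylic acid synthesis and local cell death. Because unneeded activity stunts growth, plants hold NLR transcripts down by microRNAs and other means. By the words of the description and by protein matches of the first 200 residues to known members, 109 of the 166 genes were TIR-type, 36 CC-type and 5 RPW8-like, and 16 stayed unclassified. These rules left *RRS1* unclassified, whereas *RRS1B*, from a similar pair of receptors described below, was counted as TIR-type.

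Most of these genes were read in leaves, at moderate levels. Of the 166 genes, 155 were above 0 in at least 1 library, 11 were listed at 0 in all 12, and 106 (63.9%) reached 1 FPKM in at least 4 libraries and were tested. Among all 32954 genes, 55.7% reached this level. None of the 106 reached 1 FPKM in libraries of 1 genotype alone. Of the 106, 93 were at 1 FPKM or more in all 12 libraries and 44 had a mean of 10 FPKM or more. The median of their means was 8.14 FPKM, against 11.2 FPKM over the 18354 genes tested. The highest mean level belonged to *RLM3*, followed by *SNC1*, *RPP8*, *AT5G45510* and *RLM1B*.

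Several well-known receptors were hardly read. *RPS2*, the CC-type receptor that guards RIN4 against a bacterial protease, was listed at 0 in all 12 libraries. It overlaps 2 annotated genes, and how the reads of overlapping genes were assigned is not stated, so this 0 says nothing on its expression. *RLM1A*, a receptor against the fungus *Leptosphaeria maculans*, reached 0.113 FPKM at most in the overexpressor, 0.0860 FPKM in *glct2* and 0.165 FPKM in wild types. *CHS1*, whose mutants are chilling sensitive, reached 0.151, 0.267 and 0.160 FPKM in the same order of genotypes. Most of *CHS1* overlaps *AT1G17600* on the other strand, so its low level may also depend on how reads were assigned. *AT1G17615* and *AT5G66890* also stayed under 1 FPKM in every library.

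The summed level of the 166 genes was lowest in the overexpressor. It was 1124, 1144, 1066 and 983 FPKM in the overexpressor, 1372, 1293, 1336 and 1204 FPKM in *glct2* and 1535, 1436, 1383 and 1477 FPKM in wild types. All 4 overexpressor libraries lay below all *glct2* and wild-type libraries, and all 4 *glct2* libraries lay below all wild-type libraries. The group means were 1079 ± 72 FPKM, 1301 ± 72.7 FPKM and 1458 ± 64.4 FPKM in this order (SD, n = 4 each). As a share of the recovered reads, these genes made up 0.405 to 0.479% in the overexpressor, 0.480 to 0.551% in *glct2* and 0.511 to 0.574% in wild types, so that on this scale *glct2* and wild types overlapped. Leaf RNA does not tell whether a lower level came from fewer cells of a type or from less RNA per cell.

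**Figure D1:**
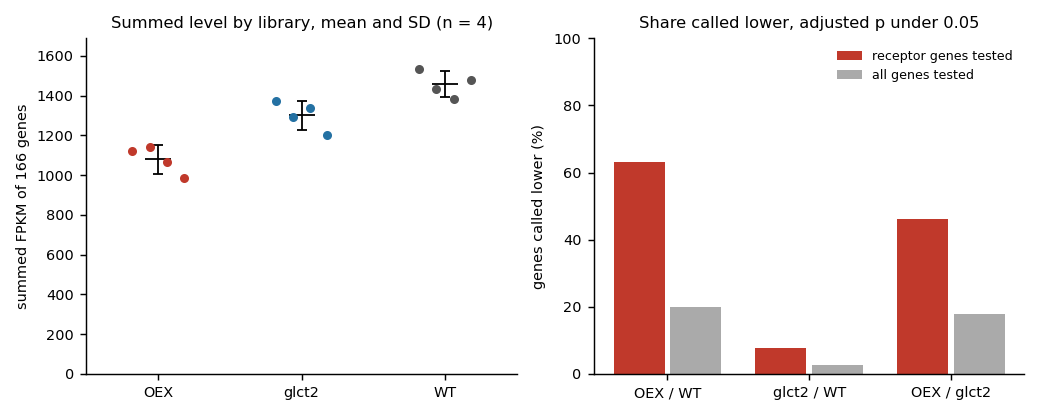
Left, summed FPKM of the 166 genes in each library (points) for the overexpressor (OEX), *glct2* and wild types (WT), with the mean and SD of 4 libraries. Right, the percentage of genes called lower in each of 3 comparisons, for the 106 receptor genes tested and for all 18354 genes tested. The overexpressor libraries lie at 983 to 1144 FPKM and the wild-type libraries at 1383 to 1535 FPKM, and 63.2% of the receptor genes were called lower in the overexpressor.

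The first comparison asked which receptor genes responded to raised *pGlcT2*. In the overexpressor, 67 of the 106 tested genes (63.2%) were lower than in wild types and 1 was higher, whereas 38 were not called. Over all tested genes 19.9% were called lower and 18.7% higher (limma, adjusted p under 0.05). The median log2 fold change was -0.31 over the 106 genes and 0.0033 over all tested genes, and 96 of the 106 had a negative value, against 49.4% of all genes. All 4 overexpressor libraries lay below all 4 wild-type libraries in 65 of the 106 genes and above them in 1, against 18.5% and 15.9% of all genes. Log2 fold changes here are differences of group means of log2(FPKM + 1), given with their standard error, and they understate the change of genes at low levels. Most of the differences were small: 8 of the 67 had a log2 fold change of -1 or less. Where the libraries were rescaled to their recovered reads, 45 of the 67 were called lower and 3 genes higher, while the median of all genes was 0.12 and that of the 106 genes -0.19. That scaling also moved the calls over all genes to 5788 higher and 2436 lower, against 3441 higher and 3646 lower on the deposited scale. With median-of-ratios scaling 67 of the 106 genes were called lower and 1 higher. The medians were then -0.31 over the 106 genes and 0.0033 over all genes. This scaling left the deposited values almost unchanged, so that its equal counts are no separate check. Without a filter on low values, 65 of the 155 genes above 0 were called lower.

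Most of the calls fell on TIR-type genes, which were also most of the genes tested. Of the 67 TIR-type genes tested, 46 were lower and 0 higher in the overexpressor (median log2 fold change -0.35), as were 13 and 0 of 25 CC-type genes (median -0.27), 4 and 0 of 5 RPW8-like genes (median -0.30) and 4 and 1 of 9 unclassified genes (median -0.21). With rescaling to recovered reads the class medians were -0.22, -0.15, -0.18 and -0.13 in the same order. Whether the classes differ was not tested. By level, 30 of 44 genes with a mean of 10 FPKM or more, 29 of 40 with a mean of 3 to 10 FPKM and 8 of 22 below 3 FPKM were lower.

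**Figure D2:**
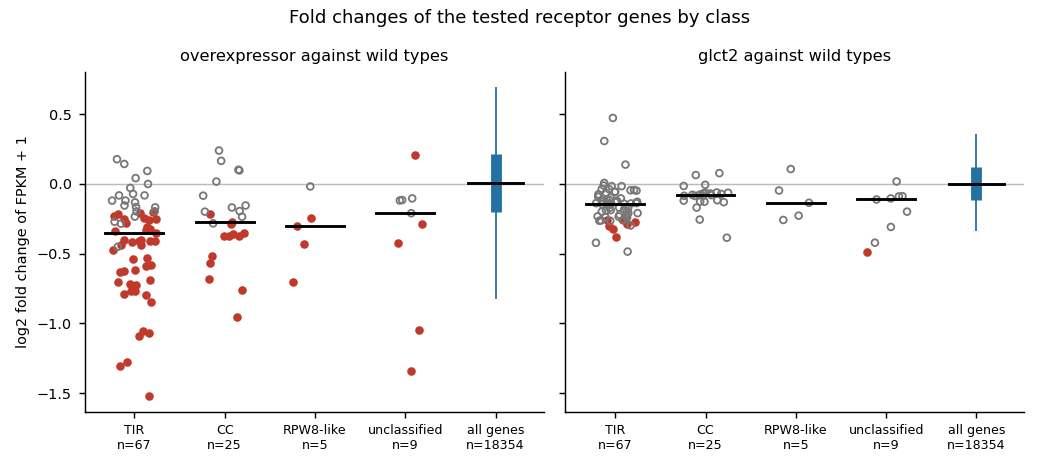
Log2 fold change of FPKM + 1 for the 106 tested receptor genes by class, in the overexpressor (left) and in *glct2* (right) against wild types. Filled red points were called (adjusted p under 0.05), open points were not, black lines are medians, and the blue bar and line give the middle 50% and 90% of all 18354 tested genes. The points of the left panel reach -1.52 and lie mostly below 0, while those of the right panel reach -0.49.

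The strongest decreases included some of the most abundant receptor transcripts. *RLM3* (*AT4G16990*, chr4:9558571-9565569, plus strand), a TIR-type protein without leucine-rich repeats that takes part in resistance to *Leptosphaeria maculans* and to necrotrophic fungi, was read at 51.2, 63.5, 47 and 36.1 FPKM in the overexpressor, 96.5, 98.1, 97.3 and 87.1 FPKM in *glct2* and 111, 94.1, 104 and 108 FPKM in wild types. The overexpressor libraries lay far below both other genotypes, whose ranges overlapped. Its log2 fold change against wild types was -1.09 ± 0.13, adjusted p = 6.6e-05. *AT5G45510* (chr5:18444607-18449446, plus strand), annotated as a probable disease resistance protein with no domain label, was read at 31.2, 31.8, 30.8 and 29.1 FPKM in the overexpressor, 45.1, 45.3, 46.9 and 45.7 FPKM in *glct2* and 71.9, 56.3, 60.6 and 70.3 FPKM in wild types. The 3 ranges were separate, with *glct2* between both others. Its log2 fold change was -1.04 ± 0.074, adjusted p = 1.9e-06 in the overexpressor. *AT5G45490* (chr5:18429047-18432430, plus strand), a gene nearby with an NB-ARC label, was read at 13.2, 13.5, 14.1 and 10.8 FPKM in the overexpressor, 24.7, 25.2, 27.3 and 23.9 FPKM in *glct2* and 38.8, 24.8, 36.6 and 38.4 FPKM in wild types. All overexpressor libraries lay below the rest, while wild-type replicate 2 fell among the *glct2* libraries. Its log2 fold change was -1.34 ± 0.13, adjusted p = 1.3e-05. This gene overlaps 2 annotated genes.

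The other 5 genes of the 8 largest decreases were all TIR-type, at low or middle levels. *AT1G57630* (chr1:21345445-21346157, plus strand), a short gene described as similar to RPP1-WsB, had the most negative log2 fold change. It was read at 1.85, 1.33, 1.16 and 1.48 FPKM in the overexpressor, 10.1, 5.94, 16.4 and 3.24 FPKM in *glct2* and 8.21, 3.94, 6.48 and 6.13 FPKM in wild types. The overexpressor libraries were below all others, but *glct2* spanned and exceeded the wild-type range, with replicates 1 and 3 highest. Its log2 fold change was -1.52 ± 0.34, adjusted p = 0.0044. *AT5G45000* was read at 0.566, 0.689, 0.528 and 0.348 FPKM in the overexpressor, 1.96, 2.17, 3.00 and 1.63 FPKM in *glct2* and 4.06, 1.63, 2.71 and 3.15 FPKM in wild types. The overexpressor did not overlap with either genotype, and the log2 fold change was -1.31 ± 0.18, adjusted p = 1.9e-04. An annotated gene on the other strand overlaps it. *AT1G66090*, a TIR-NBS gene, was read at 0.689, 1.88, 0.529 and 1.21 FPKM in the overexpressor, 3.08, 3.02, 4.65 and 1.94 FPKM in *glct2* and 4.84, 2.60, 3.93 and 4.41 FPKM in wild types. Its overexpressor libraries lay below all others (log2 fold change -1.27 ± 0.23, adjusted p = 0.0011).

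*AT5G41740* and *AT5G41750* are neighbours on chromosome 5 and read in the same direction. *AT5G41740* (chr5:16688626-16693119, plus strand) was read at 4.87, 6.57, 4.43 and 3.41 FPKM in the overexpressor, 10.3, 9.14, 10.7 and 7.18 FPKM in *glct2* and 12.9, 9.33, 10.9 and 10.9 FPKM in wild types. *AT5G41750* (chr5:16693832-16699028, plus strand) was read at 2.96, 3.59, 2.84 and 3.59 FPKM in the overexpressor, 7.49, 6.19, 7.82 and 4.31 FPKM in *glct2* and 8.89, 7.08, 7.20 and 8.02 FPKM in wild types. In both genes every overexpressor library lay below every other library, and the log2 fold changes were -1.07 ± 0.16, adjusted p = 2.7e-04 and -1.05 ± 0.14, adjusted p = 1.5e-04.

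**Figure D3:**
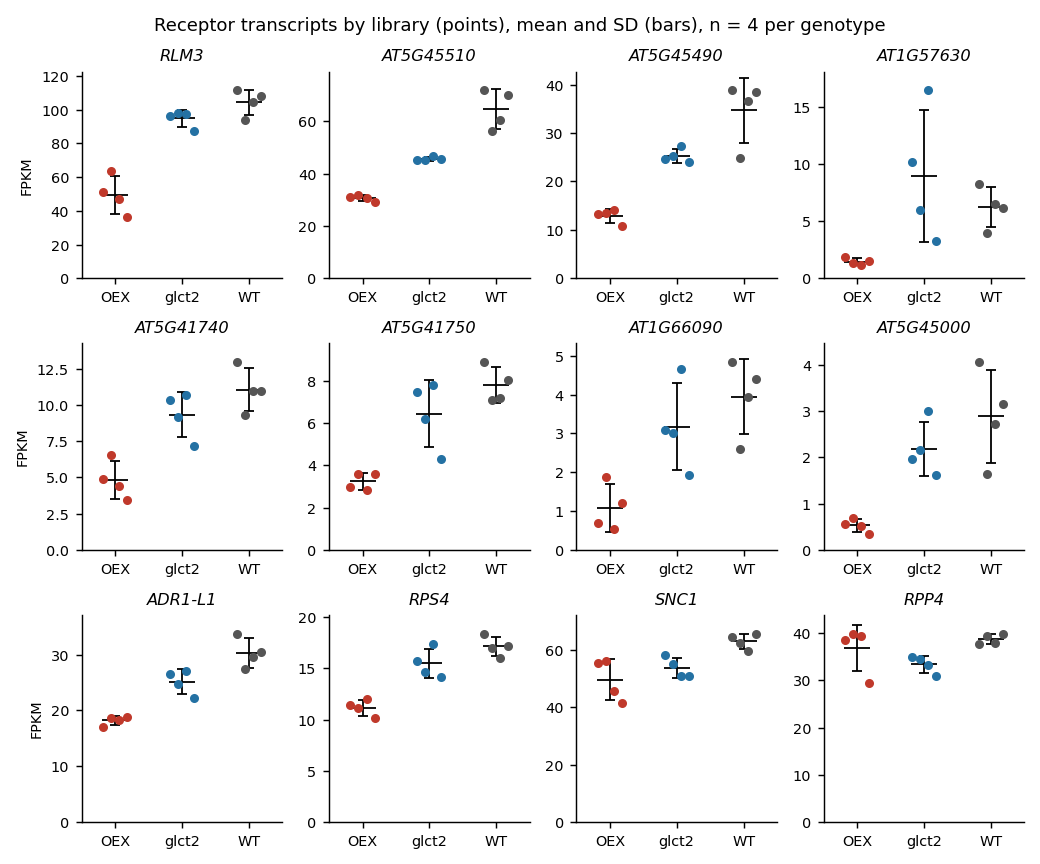
FPKM of 12 receptor genes in each library (points), with the mean and SD of 4 libraries per genotype, for the overexpressor (OEX), *glct2* and wild types (WT). In the 8 genes of the upper rows all overexpressor points lie below all wild-type points, while in *RPP4* the overexpressor and the wild types overlap.

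The single gene called higher in the overexpressor was *AT4G19060* (chr4:10444916-10446300, minus strand), a probable disease resistance protein with an NB-ARC label. It was read at 13.3, 16, 15.3 and 14.4 FPKM in the overexpressor, 13.3, 13.5, 12.8 and 11.7 FPKM in *glct2* and 12.2, 13.6, 11.8 and 13 FPKM in wild types. The overexpressor and wild-type ranges overlapped, and the log2 fold change was 0.21 ± 0.071, adjusted p = 0.036. The call was lost in the fit of both genotypes alone and when overexpressor replicate 2, 3 or 4 or wild-type replicate 1, 3 or 4 was left out. Other genes were called higher beside it in some alternatives. These were *SUMM2* and *AT5G43730* with rescaling to recovered reads, the same genes and *AT4G16940* with limma voom on recovered reads, and *RFL1* without a filter.

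Upstream sequences of 3 of the 8 genes with the largest decreases are shown because WRKY transcription factors, many of them acting in immunity, bind the W-box with its core TTGAC. The 250 bases before the gene start are given 5′ to 3′ from the RefSeq genome (TAIR10.1), in lower case with TTGAC and its reverse complement GTCAA in capitals.
RLM3 (chr4:9558321-9558570, plus strand): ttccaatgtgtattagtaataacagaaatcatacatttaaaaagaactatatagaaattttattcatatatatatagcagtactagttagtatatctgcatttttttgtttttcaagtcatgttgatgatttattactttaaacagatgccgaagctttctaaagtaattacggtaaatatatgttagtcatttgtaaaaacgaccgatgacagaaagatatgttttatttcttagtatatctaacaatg
AT5G45490 (chr5:18428797-18429046, plus strand): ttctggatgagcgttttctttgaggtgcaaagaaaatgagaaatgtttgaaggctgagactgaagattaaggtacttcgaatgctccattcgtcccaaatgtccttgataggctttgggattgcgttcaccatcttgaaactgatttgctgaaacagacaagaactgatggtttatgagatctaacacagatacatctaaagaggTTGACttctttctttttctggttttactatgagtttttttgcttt
AT1G66090 (chr1:24601783-24602032, plus strand): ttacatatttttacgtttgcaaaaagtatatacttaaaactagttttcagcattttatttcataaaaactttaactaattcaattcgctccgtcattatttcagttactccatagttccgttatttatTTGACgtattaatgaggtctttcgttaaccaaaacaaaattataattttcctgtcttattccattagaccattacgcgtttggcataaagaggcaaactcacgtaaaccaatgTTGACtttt
The core, searched on both strands, occurred at least once in the 250 bases of 90 of 165 receptor genes (54.5%) and of 12319 of 27419 protein-coding genes (44.9%). Extended to TTGACC or TTGACT, it occurred in 44.2% of the receptor genes and in 28.4% of the protein-coding genes, and TTGACT alone in 35.2% and 19.1%. Of the 66 receptor genes called lower in the overexpressor with an upstream sequence, 34 (51.5%) had the core, as did 19 (48.7%) of the 39 tested and not called lower. The shares were 43.9% and 33.3% for TTGACC or TTGACT, and 37.9% and 25.6% for TTGACT alone. A match of letters is no evidence of binding.

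Among receptors of known pathogens some were called and some were not. *SNC1*, a TIR-type receptor whose gain-of-function allele causes autoimmunity, was read at 55.6, 56.1, 45.6 and 41.6 FPKM in the overexpressor, 58.2, 55, 51 and 51 FPKM in *glct2* and 64.6, 62.4, 59.8 and 65.7 FPKM in wild types. Its overexpressor libraries lay below all wild-type libraries (log2 fold change -0.35 ± 0.092, adjusted p = 0.011). *RPP8*, a CC-type receptor against downy mildew, had 46.9 ± 2.33 FPKM in the overexpressor and 54.6 ± 2.87 FPKM in wild types (SD, n = 4 each, log2 fold change -0.22 ± 0.058, adjusted p = 0.011). *RPP1* and *RPP5*, TIR-type receptors against the same pathogen, had log2 fold changes of -0.25 ± 0.058, adjusted p = 0.0046 and -0.21 ± 0.068, adjusted p = 0.027. *RLM1B*, a close relative of *RLM1A*, had 33.8 ± 3.68 FPKM in the overexpressor and 38 ± 2.33 FPKM in wild types and was not called (log2 fold change -0.17 ± 0.08, adjusted p = 0.12). *RPP4*, the neighbour of *SNC1*, was not called (-0.082 ± 0.087, adjusted p = 0.48), nor was *RPP13*, a CC-type receptor (-0.20 ± 0.089, adjusted p = 0.098). The calls of *SNC1*, *RPP8*, *RPP1* and *RPP5* were lost with rescaling to recovered reads, and that of *RPP5* also without overexpressor replicate 4 or wild-type replicate 1 or 4. *RPP1*, *RPP5*, *RPP8* and *RPP13* each overlap an annotated gene.

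Among receptors of bacterial effectors, *RPS4* was lower and *RPM1* and *RPS6* were not called. *RPS4* was read at 11.4, 11.1, 12 and 10.1 FPKM in the overexpressor, 15.8, 14.6, 17.4 and 14.2 FPKM in *glct2* and 18.4, 17, 16 and 17.2 FPKM in wild types. The overexpressor range was separate from both others, and its log2 fold change was -0.58 ± 0.073, adjusted p = 8.7e-05. RPS4 works as a pair with RRS1, which carries a WRKY domain as a decoy for effectors, and *RRS1* had 6.96 ± 0.308 FPKM in the overexpressor and 8.69 ± 0.384 FPKM in wild types (log2 fold change -0.28 ± 0.067, adjusted p = 0.0057). The second such pair, *RPS4B* and *RRS1B*, had log2 fold changes of -0.41 ± 0.069, adjusted p = 6.6e-04 and -0.34 ± 0.047, adjusted p = 1.8e-04. The call of *RRS1* was lost with rescaling to recovered reads. *RPM1*, which guards RIN4, and *RPS6* had -0.19 ± 0.075, adjusted p = 0.057 and -0.12 ± 0.06, adjusted p = 0.13. *LAZ5*, a TIR-type gene, and *ADR2*, also listed as *WRR4* for its part in white rust resistance, were lower, with log2 fold changes of -0.63 ± 0.078, adjusted p = 7.1e-05 and -0.41 ± 0.075, adjusted p = 0.0011. *AT1G17600* (TIR-type) and *AT1G50180* (CC-type) were lower as well, with -0.77 ± 0.11, adjusted p = 1.8e-04 and -0.37 ± 0.095, adjusted p = 0.0088. *AT1G17600* overlaps *CHS1* on the other strand. *TAO1*, a TIR-type gene, was not called, with 10.9 ± 1.27 FPKM in the overexpressor and 10.1 ± 0.841 FPKM in wild types (log2 fold change 0.093 ± 0.086, adjusted p = 0.42).

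Both pairs are transcribed away from each other from a very short stretch, which is shown because both genes of a pair start at its edges. On the plus strand of chromosome 5 in TAIR10.1, 27 bases lie between *RPS4* and *RRS1*, and 64 bases between *RRS1B* and *RPS4B*, with the W-box core in capitals.
RPS4 to RRS1 (chr5:18326176-18326202): tgagatttgagtggttgaatgtccaat
RRS1B to RPS4B (chr5:18181974-18182037): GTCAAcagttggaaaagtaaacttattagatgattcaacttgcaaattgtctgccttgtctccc
*RPS4* had 11.2 ± 0.782 FPKM in the overexpressor, 15.5 ± 1.44 FPKM in *glct2* and 17.2 ± 0.954 FPKM in wild types, and *RRS1* had 6.96 ± 0.308 FPKM in the overexpressor, 8.12 ± 0.717 FPKM in *glct2* and 8.69 ± 0.384 FPKM in wild types (SD, n = 4 each). *RPS4B* had 12 ± 1.08 FPKM in the overexpressor, 15 ± 0.680 FPKM in *glct2* and 16.2 ± 1.00 FPKM in wild types, and *RRS1B* had 9.22 ± 0.191 FPKM in the overexpressor, 10.7 ± 0.141 FPKM in *glct2* and 11.9 ± 0.449 FPKM in wild types. All 4 genes were called lower in the overexpressor and none of them in *glct2*. In a further pair that the description rule did not find, *DAR4* (known as *CHS3*) and *CSA1* had log2 fold changes of -0.37 ± 0.07, adjusted p = 0.0015 and -0.44 ± 0.065, adjusted p = 2.7e-04 in the overexpressor. In another pair outside the rule only 1 gene was called. *DSC1* was lower in the overexpressor (-0.55 ± 0.085, adjusted p = 3.3e-04), whereas *WRKY19* was not called (-0.19 ± 0.082, adjusted p = 0.095).

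Of the 5 helper receptors of the RPW8-like class, through which many sensors signal, 4 were lower in the overexpressor. *ADR1-L1* (chr4:16050456-16056526, minus strand) was read at 17, 18.7, 18.3 and 18.8 FPKM in the overexpressor, 26.6, 24.8, 27.1 and 22.2 FPKM in *glct2* and 33.7, 27.3, 29.6 and 30.5 FPKM in wild types. Its 3 ranges were separate in the order overexpressor, *glct2*, wild types, and the log2 fold change in the overexpressor was -0.70 ± 0.076, adjusted p = 3.0e-05. *ADR1-L2* had 19.7 ± 1.72 FPKM in the overexpressor and 26.9 ± 0.641 FPKM in wild types (SD, n = 4 each, log2 fold change -0.43 ± 0.089, adjusted p = 0.0025). *ADR1*, the founding member, was read at 8.43, 9.24, 8.49 and 8.99 FPKM in the overexpressor, 9.85, 7.45, 10.3 and 7.12 FPKM in *glct2* and 10.4, 8.70, 9.04 and 7.70 FPKM in wild types, with overlapping ranges and a log2 fold change of -0.018 ± 0.11, adjusted p = 0.92. *AT5G66900* and *AT5G66910*, adjacent RPW8-like genes, had log2 fold changes of -0.24 ± 0.089, adjusted p = 0.047 and -0.30 ± 0.092, adjusted p = 0.022, and both calls were lost with rescaling to recovered reads. That of *AT5G66900* was lost in 14 alternatives, and that of *AT5G66910* also without overexpressor replicate 1 or wild-type replicate 1 or 4. *ADR1-L1* overlaps 3 annotated genes.

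The second comparison asked which receptor genes responded to the loss of *pGlcT2*. In *glct2*, 8 of the 106 genes (7.55%) were lower than in wild types and 0 were higher, against 2.62% and 1.95% of all tested genes. No alternative called a receptor gene higher in *glct2*. The median log2 fold change was -0.13 over the 106 genes and 0.0017 over all tested genes, and 98 of the 106 had a negative value, against 49.6% of all genes. All 4 *glct2* libraries lay below all 4 wild-type libraries in 19 of the 106 genes and above them in 0, against 9.43% and 7.5% of all genes. Both mutants were set against the same 4 wild-type libraries, so that their values are not independent. The number called in *glct2* was 1 when *glct2* replicate 3 or 4 or wild-type replicate 1 or 4 was left out, 2 without *glct2* replicate 2, 4 without wild-type replicate 2 and 5 without *glct2* replicate 1. With rescaling to recovered reads it was 1, with a median of -0.030 over the 106 genes and 0.097 over all genes, and the calls over all genes were then 1279 higher and 242 lower, against 357 higher and 481 lower on the deposited scale. Rescaling also turned the median of the CC-type genes to 0.019. *AT5G45510* was called in each of these fits, whereas the calls of the other 7 genes were lost in 5 to 16 alternatives each.

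*AT5G45510* had the largest log2 fold change of the 8 in *glct2* (log2 fold change -0.49 ± 0.074, adjusted p = 0.0048), and its values in every library are given above. *AT5G46260* was read at 5.89, 5.25, 4.63 and 4.52 FPKM in the overexpressor, 8.16, 7.17, 7.22 and 6.86 FPKM in *glct2* and 10.4, 10.5, 8.70 and 9.98 FPKM in wild types. Its 3 ranges were separate (log2 fold change -0.38 ± 0.086, adjusted p = 0.033 in *glct2*, -0.84 ± 0.086, adjusted p = 2.0e-05 in the overexpressor). *AT2G14080*, *AT1G69550* and *AT4G36150*, all TIR-type genes, had log2 fold changes of -0.30 ± 0.065, adjusted p = 0.027, -0.32 ± 0.065, adjusted p = 0.021 and -0.29 ± 0.073, adjusted p = 0.047 in *glct2*. In the overexpressor these 3 were at -0.62 ± 0.065, adjusted p = 2.4e-05, -0.53 ± 0.065, adjusted p = 7.1e-05 and -0.69 ± 0.073, adjusted p = 2.6e-05.

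The other 3 genes called in *glct2* were receptors of known pathogens. *RPS6*, a TIR-type receptor of the bacterial effector HopA1, was read at 20.6, 22.1, 21.8 and 21.1 FPKM in the overexpressor, 20.8, 18.2, 18.6 and 19 FPKM in *glct2* and 23.4, 24.5, 21.3 and 24.2 FPKM in wild types. The *glct2* libraries lay below all wild-type libraries while the overexpressor overlapped with both, and the log2 fold change was -0.27 ± 0.06, adjusted p = 0.03 in *glct2*. *RPP1* was read at 27.2, 28.3, 28.2 and 31 FPKM in the overexpressor, 29.8, 28.8, 27.9 and 27.6 FPKM in *glct2* and 36.3, 34.8, 31.8 and 34.4 FPKM in wild types. Both mutants lay below wild types and overlapped with each other (log2 fold change -0.26 ± 0.058, adjusted p = 0.031 in *glct2*). *RPP5* was read at 28.2, 26.9, 29.8 and 24.1 FPKM in the overexpressor, 27.2, 25.6, 26.2 and 25.8 FPKM in *glct2* and 34, 31.7, 29.4 and 31.5 FPKM in wild types, with *glct2* below wild types and the overexpressor overlapping both. It had a log2 fold change of -0.26 ± 0.068, adjusted p = 0.0499 in *glct2*.

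Set against each other, the overexpressor had 49 of the 106 genes lower than *glct2* and 4 higher, against 17.7% and 15.9% of all tested genes, with a median log2 fold change of -0.20. A negative value was found in 81 of the 106 genes, against 49.8% of all genes, and the overexpressor libraries lay below all *glct2* libraries in 43 genes and above them in 4, against 16.9% and 15.4%. The 4 with the largest differences were *RLM3* (-0.95 ± 0.13, adjusted p = 3.2e-04), *AT1G57630* (-1.83 ± 0.34, adjusted p = 0.0019), *AT5G45000* (-1.04 ± 0.18, adjusted p = 0.0014) and *AT1G66090* (-1.01 ± 0.23, adjusted p = 0.006). The 4 genes higher in the overexpressor were *SUMM2*, *TAO1*, *AT4G16857* and *AT5G43730*, *AT4G16857* and *AT5G43730* being named after their values were seen. *SUMM2*, a CC-type receptor that monitors the MEKK1 and MPK4 kinase cascade, was read at 14, 13.7, 13.7 and 13.2 FPKM in the overexpressor, 12.1, 12.5, 11.8 and 11.4 FPKM in *glct2* and 13.2, 12.6, 11.7 and 13.2 FPKM in wild types. The overexpressor libraries lay above all others, and the log2 fold change against *glct2* was 0.18 ± 0.053, adjusted p = 0.021. *TAO1* was read at 11.8, 11.4, 11.2 and 8.98 FPKM in the overexpressor, 9.82, 8.85, 8.44 and 8.85 FPKM in *glct2* and 9.32, 10.2, 9.61 and 11.2 FPKM in wild types, with overlapping ranges (log2 fold change 0.24 ± 0.086, adjusted p = 0.047). *AT4G16857* had 2.79 ± 0.611 FPKM in the overexpressor, 1.47 ± 0.521 FPKM in *glct2* and 2.42 ± 0.491 FPKM in wild types (log2 fold change 0.63 ± 0.17, adjusted p = 0.013), and *AT5G43730* had 2.48 ± 0.274 FPKM in the overexpressor, 1.79 ± 0.278 FPKM in *glct2* and 1.95 ± 0.227 FPKM in wild types (log2 fold change 0.32 ± 0.099, adjusted p = 0.025). Each of the 4 overlaps an annotated gene (in *SUMM2* the receptor gene *AT1G12290*), so part of their reads may belong to that gene. With the replicate number as a block, 47 of the 106 genes were lower and 3 higher. In that fit *TAO1* and *AT5G43730* were not called higher and *AT5G44910* was. The call of *SUMM2* was lost without overexpressor replicate 1 or *glct2* replicate 4, and that of *TAO1* in 12 alternatives. The number called higher was 2 without overexpressor replicate 3 and 1 without *glct2* replicate 4.

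Receptor genes lie in runs along the chromosomes. Of the 165 genes with a place in the annotation, 120 lay within 50 kilobases of another one, in 37 runs, and 11 runs held 4 or more. The run of *RPP4*, *SNC1*, *RPP5* and *RLM3* on chromosome 4 spans 83.1 kilobases (chr4:9482429-9565569) and holds 9 genes, of which 8 were tested. In the overexpressor 4 of the 8 were lower, with a median log2 fold change of -0.17 over the 8. *RLM3*, at one end of the run and the only one on the plus strand, had -1.09 ± 0.13, *SNC1* had -0.35 ± 0.092, *AT4G16960* had -0.31 ± 0.083, and *RPP4* and *AT4G16857* were not called with -0.082 ± 0.087 and 0.14 ± 0.17. Neighbours in this run had unequal estimates. In the run of 5 around *LAZ5* and *RRS1B* and in that of 5 around *RPS6* on chromosome 5, 4 of 5 genes each were lower (medians -0.41 and -0.26). In the runs of 4 or more on chromosome 1, 1 of 3, 1 of 3, 2 of 4, 2 of 5 and 2 of 5 tested genes were lower. In the remaining such runs on chromosomes 4 and 5, 1 of 1, 3 of 4 and 2 of 2 were lower. The share over all tested receptor genes was 63.2%. In the *RPS6* run the calls of *AT5G46510* and *AT5G46520* were lost with rescaling to recovered reads. Near copies limit the reading of single genes: 10 of the 166 had a partner among them with at least 95% identical coding sequence, 7 of them tested. *RF9* and its copy on chromosome 1 were 100% identical, and *VICTR* (*AT5G46520*) and *VICTL* (*AT5G46510*) 96.2%, so that their reads may be split between copies. Of the 106 tested genes, 28 overlapped another annotated gene, and without them 52 of 78 were lower in the overexpressor.

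**Figure D4:**
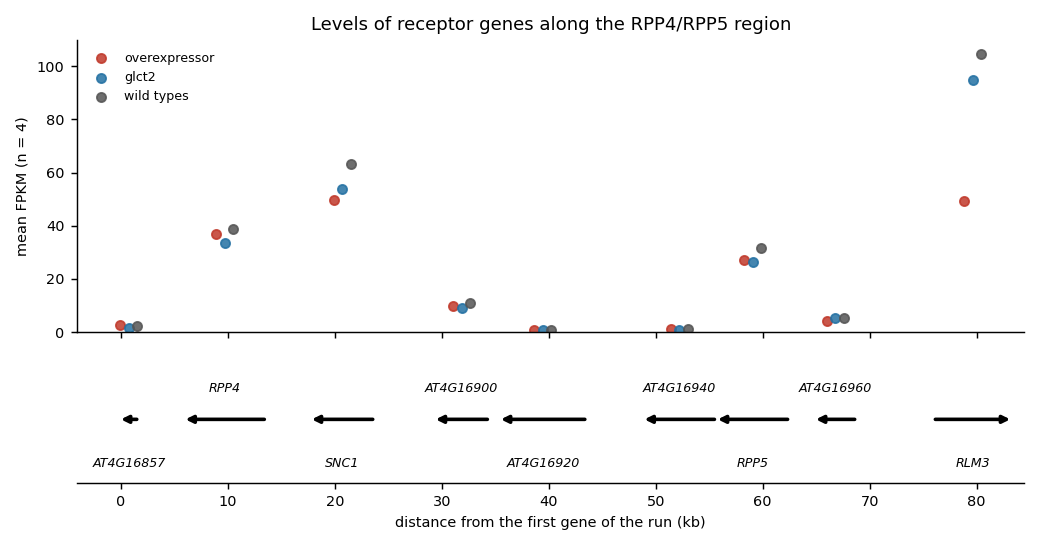
Mean FPKM of 4 libraries per genotype for 9 receptor genes of 1 run on chromosome 4, drawn at their distance in kilobases from the first gene, with the points of the genotypes set slightly apart (overexpressor left, wild types right). Arrows show length and strand to scale. The largest gap between the overexpressor and the wild types is at *RLM3*, with means of 49.5 and 104 FPKM.

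CC-type receptor transcripts are targets of the microRNA miR472, which pairs with the codons of the P-loop and sets off small interfering RNA production. The mature sequence from the RefSeq annotation (chr1:4182143-4182164, minus strand) is shown with bases 2 to 8 in capitals, followed by the matching stretch of 5 receptor coding sequences, in which capitals pair with the microRNA and lower case letters do not or form a G:U pair.
miR472-3p: uUUUUCCUacuccgcccauacc
AT5G43740: GGUAUGGGgGGAGUAGGAAAAA
AT1G12290: GGcAUGGGuGGAGUAGGAAAAA
AT5G63020: GGUAUGGGuGGAGUAGGuAAAA
AT5G43730: GGUAUGGGgGGAaUAGGAAAAA
SUMM2: GGcAUGGGuGGAGUAGGcAAAA
A site was counted at a penalty of 5 or less, where a mismatch cost 1, a G:U pair 0.5, and both were doubled at microRNA bases 2 to 13. Such a stretch occurred in 21 of 165 receptor coding sequences and in 27 of 27435 coding sequences in all (0.0984%), and all 21 covered the P-loop codons. Of the 21 genes, 20 were CC-type and 15 were tested. In the overexpressor 7 of the 15 were lower and 0 higher (median log2 fold change -0.28), and of the 10 tested CC-type genes without a site 6 were lower (median -0.25). In *glct2* none of the 15 was called, and all 15 estimates were negative, with a median of -0.085, beside 8 of 10 negative and a median of -0.075 for the CC-type genes without a site, while rescaling to recovered reads alone moved the median of all genes to 0.097. The level of the microRNA was not measured.

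Of 18 genes for NLR partners and chaperones, all tested, 10 (55.6%) were lower in the overexpressor than in wild types, 0 were higher and 8 were not called, against 19.9% lower over all tested genes (median log2 fold change -0.22). *EDS1* was read at 9.82, 12.6, 11.1 and 10.6 FPKM in the overexpressor, 23.6, 19.8, 30.8 and 19.3 FPKM in *glct2* and 24.7, 18.8, 20.6 and 23.8 FPKM in wild types. *PAD4* was read at 13.4, 13.7, 15 and 13.2 FPKM in the overexpressor, 26.3, 21.4, 31 and 19.7 FPKM in *glct2* and 28.4, 24.3, 26.1 and 26.8 FPKM in wild types. *SAG101* was read at 7.21, 7.10, 6.99 and 6.82 FPKM in the overexpressor, 14.6, 12.7, 16.1 and 10.8 FPKM in *glct2* and 13, 13.2, 12.2 and 12.1 FPKM in wild types. In these 3 genes for the hub of TIR-type signalling every overexpressor library lay below every other library, with log2 fold changes of -0.93 ± 0.14, adjusted p = 2.4e-04, -0.88 ± 0.12, adjusted p = 1.1e-04 and -0.76 ± 0.096, adjusted p = 8.8e-05. *EDS1B*, the close copy of *EDS1*, had -1.45 ± 0.14, adjusted p = 1.7e-05. *NDR1*, which CC-type receptors need, had -1.26 ± 0.10, adjusted p = 4.3e-06, and *RIN4*, the protein guarded by RPM1 and RPS2, had 15.1 ± 2.56 FPKM in the overexpressor, 33.9 ± 3.58 FPKM in *glct2* and 35.8 ± 1.52 FPKM in wild types (log2 fold change -1.21 ± 0.11, adjusted p = 9.0e-06). *SGT1A*, a co-chaperone of receptor folding, had -0.87 ± 0.12, adjusted p = 1.3e-04 and its copy *SGT1B* -0.27 ± 0.075, adjusted p = 0.013. The kinases *ZED1* and *PBL2* had -0.17 ± 0.061, adjusted p = 0.041 and -0.42 ± 0.11, adjusted p = 0.01. The calls of *SGT1B*, *ZED1* and *PBL2* were lost with rescaling to recovered reads, and that of *ZED1* in 14 alternatives. Not called were *PBS1*, *RIPK*, *RAR1*, *RKS1* and the 4 *HSP90* genes. In *glct2*, 1 of the 18 was called, *HSP90.4*, which was higher (0.24 ± 0.057, adjusted p = 0.038). This call was lost in 10 alternatives, among them leaving out any *glct2* or wild-type library.

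Of 9 genes that restrain the receptors or belong to the pathway of SUMM2, 8 were tested. Of these, 2 (25%) were lower in the overexpressor, a share near the 19.9% of all tested genes. *MKK1* and *MKK2*, the kinases between MEKK1 and MPK4 that SUMM2 monitors, had log2 fold changes of -0.73 ± 0.097, adjusted p = 1.2e-04 and -0.44 ± 0.067, adjusted p = 3.4e-04. *SRFR1* and *CPR1*, which limit receptor accumulation, were not called (-0.091 ± 0.059, adjusted p = 0.25 and 0.067 ± 0.071, adjusted p = 0.48). *BON1*, which overlaps another gene, was below 1 FPKM in every library and was not tested. None of the 8 was called in *glct2*.

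Of 11 genes of salicylic acid synthesis and response, an output of receptor signalling, 8 (72.7%) were lower in the overexpressor, 0 were higher and 3 were not called, against 19.9% lower over all tested genes (median log2 fold change -1.12), and none was called in *glct2*. *ICS1*, which makes the precursor of salicylic acid in the plastid, was read at 4.78, 6.03, 4.30 and 5.20 FPKM in the overexpressor, 17.3, 12, 22.9 and 9.99 FPKM in *glct2* and 17.2, 12.8, 13.1 and 14.8 FPKM in wild types, with every overexpressor library below the rest (log2 fold change -1.35 ± 0.20, adjusted p = 2.8e-04). The regulators *SARD1* and *CBP60g* had -1.12 ± 0.17, adjusted p = 3.1e-04 and -1.14 ± 0.18, adjusted p = 4.2e-04, the salicylic acid receptor *NPR1* -0.53 ± 0.062, adjusted p = 5.3e-05, and *EDS5*, a plastid exporter of salicylic acid synthesis, -0.82 ± 0.22, adjusted p = 0.012. *ALD1*, of pipecolic acid synthesis, had -1.12 ± 0.35, adjusted p = 0.025, a call lost without overexpressor replicate 3 or wild-type replicate 1, 2 or 3. The estimate for this weakly read gene was -0.346 with a pseudocount of 5 and -3.35 with limma voom on recovered reads, and neither was called. *PR1*, the classical marker of this response, was read at 145, 18.3, 28.3 and 60.9 FPKM in the overexpressor, 709, 271, 753 and 133 FPKM in *glct2* and 567, 259, 257 and 134 FPKM in wild types. Its overexpressor and wild-type ranges overlapped, and *glct2* replicates 1 and 3 were the highest of all, as they were for *AT1G57630* (log2 fold change of *PR1* in the overexpressor -2.49 ± 0.69, adjusted p = 0.013). *PR5* had -1.65 ± 0.36, adjusted p = 0.0038, while *PR2*, *PBS3* and *FMO1* were not called.

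**Figure D5:**
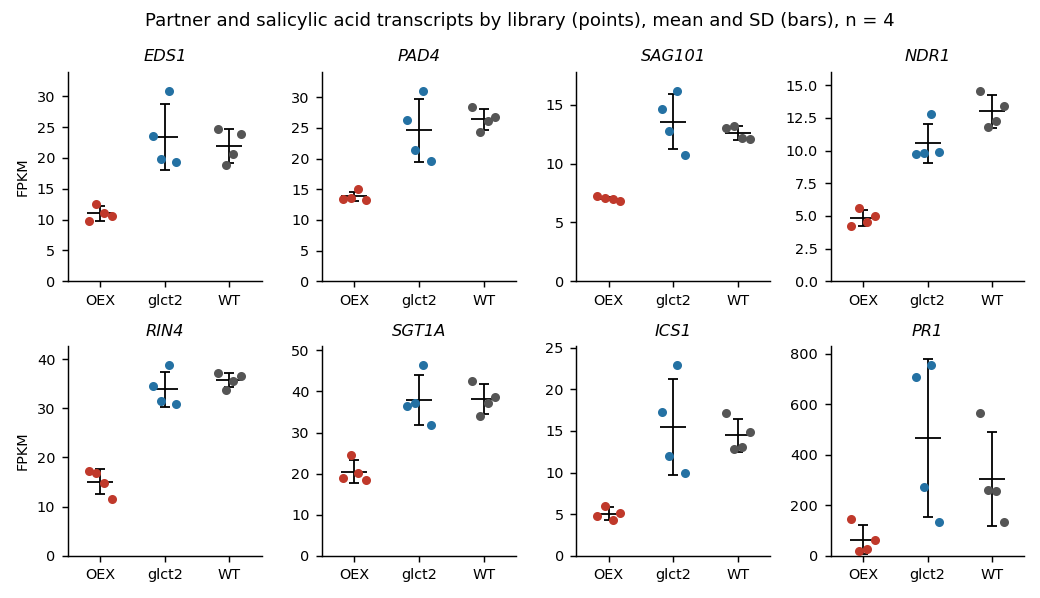
FPKM of 6 receptor partners and of the salicylic acid genes *ICS1* and *PR1* in each library (points), with the mean and SD of 4 libraries per genotype, for the overexpressor (OEX), *glct2* and wild types (WT). In 7 of the 8 panels all overexpressor points lie below all others, and in *PR1* they overlap with wild types.

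Markers of leaf cell types were read beside these results. Of 4 mesophyll markers, *RBCS3B*, *LHCB1.1* and *RCA* were lower in the overexpressor and *RBCS1A* was not called, and their summed level was 7738 to 12704 FPKM in the overexpressor, 9468 to 15978 FPKM in *glct2* and 11915 to 19395 FPKM in wild types. Of 5 guard cell markers 1 was lower (*MYB60*), of 4 vascular markers 1 was higher (*APL*), of 3 tested trichome markers 1 was higher (*GL3*), and of 3 markers of dividing cells none was called. Over all tested genes 19.9% were called lower and 18.7% higher, and counts this small do not describe a cell type. The 4 root markers summed to 0.0557 to 0.244 FPKM in the overexpressor, 0.0767 to 0.346 FPKM in *glct2* and 0 to 0.292 FPKM in wild types, and *RSL4* was listed at 0 in all 12 libraries. The part of the mesophyll markers in the receptor results was not tested.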

How the data were processed

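RNA of 12 leaf libraries, 4 per genotype, was analysed. The authors deposited FPKM, that is, reads of directional libraries scaled by gene length and by a library size other than the number of recovered reads. HISAT2 2.0.5, StringTie 1.3.3, fastp and TAIR10 appear in the submitters' processing notes. Which program counted reads, with which annotation and strand setting, is not given in the sources used here. Each library's FPKM times gene length came out as a whole multiple of its smallest step in 100% of values above 0 (tolerance 0.01), and these multiples served as recovered reads. Columns of group means (3) were left out.

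A single limma model (version 3.58.1, R 4.3.3, eBayes with trend, 9 residual degrees of freedom) covered the 3 genotypes on the scale log2(FPKM + 1). Benjamini-Hochberg adjustment ran over the 18354 genes with 1 FPKM or more in at least 4 libraries, and calls were made at 0.05. Receptor classes came from the description, or else from the best BLAST 2.17.0 match of the first 200 residues. Figures were drawn with matplotlib 3.10.9. Overexpressor and *glct2* replicates of the same number deviated together (correlations 0.18, 0.15, 0.14 and 0.12), so that the blocked counts are given for that pair. The standard errors and adjusted p given for that pair come from the model without a block.

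Named genes were up to 8 largest called rises and falls in each mutant, the 5 highest levels, the 4 largest differences between the mutants, receptors of known role and the called genes of the pathway lists. Some items are not reported here. Members, lists and rules were chosen with earlier results of these data known. Alternatives were other pseudocounts, filters, scalings, a replicate block, 2 groups alone, library quality weights, limma voom on recovered reads, a minimum fold and leaving out each library.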

Additional observations from a re-analysis of the deposited data

Results flagged for a closer look

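In 8 of 183 groups of 4 libraries (4.37%) tested for a library far from the others, the gap exceeded Dixon's critical value, and chance alone gives about 1 group in 20. *RPP4* was at 29.5 FPKM in overexpressor replicate 4, against 38.7 to 39.9 FPKM in the other overexpressor libraries. *CBP60g* was at 8.88 FPKM in overexpressor replicate 2, against 6.53 to 6.81 FPKM in the others. *RLM3* was at 87.1 FPKM in *glct2* replicate 4, against 96.5 to 98.1 FPKM. *EDS1B*, *NDR1* and *MKK1* were at 13.5, 12.8 and 25.5 FPKM in *glct2* replicate 3, which was the highest of its group in all 3 genes. *AT5G45490* was at 24.8 FPKM in wild-type replicate 2, against 36.6 to 38.8 FPKM, and *EDS5* at 13.4 FPKM in wild-type replicate 1, against 8.33 to 8.89 FPKM.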

How the results depend on the processing

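The number of receptor genes lower in the overexpressor than in wild types was 45 both with rescaling to recovered reads and with limma voom, all 45 among the 67 in either fit, 51 at a filter of 5 FPKM, and 58 to 69 without any 1 library. A minimum absolute log2 fold change of 1 left 8 lower and 0 higher. The median was -0.197 without a filter and -0.192 with rescaling. The number higher was 2 without a filter, 3 with rescaling, 0 with 2 groups alone, 4 with voom and 0 to 2 without 1 library. In *glct2* the number lower was 1 with rescaling, 4 with a replicate block, 14 with library quality weights, 4 with voom, 0 at the minimum fold and 1 to 9 without 1 library. In overexpressor against *glct2*, the minimum fold left 0 higher and 3 lower, the median without a filter was -0.0878, and 1 to 5 genes were higher and 35 to 50 lower without 1 library. Median-of-ratios scaling hardly changed the values and so could not show a dependence on scaling, and it gave the counts of the main fit. It called 67 lower and 1 higher in the overexpressor against wild types, and 8 lower and 0 higher in *glct2* against wild types. Between the mutants it called 49 lower and 4 higher in the overexpressor. Replicate numbers of the mutants and wild types did not pair (correlations -0.33 to 0.33), and the replicate block gave 67 lower and 1 higher in the overexpressor against wild types. Signs turned for 3 genes not called in the overexpressor against wild types: *RPS6* (0.00609 with rescaling, 0.00712 with voom), *RPP4* (0.0457 and 0.0476, and -0.123 to 0.0181 without 1 library) and *ADR1* (0.0997 and 0.115, and -0.0804 to 0.0476 without 1 library). The causes were not tested, except that stricter settings test fewer genes or fewer libraries. Among 60 named genes in that comparison, 1224 fits kept direction and call, 73 lost the call, 8 gained it and 8 turned sign. In *glct2* against wild types 117 kept and 81 lost it (9 genes), and in overexpressor against *glct2* 513 kept and 32 lost it (25 genes). Depth limits genes below about 1 FPKM, 60 of 166 here, and shared reads limit copies and overlapping genes.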
